A study of Mus musculus with 11 samples.

Results

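Nfe2l2, the gene of the transcription factor Nrf2, and 9 genes known as its targets were examined in gingival epithelium, the lining of the gum. The 10 genes were taken by name from the deposited table, where all 10 had values, among 19170 genes with values in all. Epithelium of langerin-DTR mice, male by the paper's methods, was compared after injection of PBS (5 mice) or diphtheria toxin (DT, 6 mice). The paper's reporting summary says instead that its findings hold for both sexes. The mice carry the DT receptor under the control of langerin, the gene of which is Cd207, so that DT kills langerin-expressing cells such as Langerhans cells (LCs), and both groups carry the transgene. Injections were weekly, in the third, the fourth and the fifth week after birth, and the epithelium was collected in the eighth week, when LCs had returned by flow cytometry in the study, so the comparison is of adult tissue after an early-life depletion. The labels call the samples replicates and each was taken as 1 mouse, so the p-values below measure the spread between these samples only.

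Nrf2 is held in the cytoplasm by Keap1, which feeds it to a ubiquitin ligase built on Cul3 for destruction. Electrophiles and oxidants modify Keap1, and Nrf2 then enters the nucleus, pairs with a small Maf protein and binds the antioxidant response element (ARE), a site for which the repressor Bach1 competes. Its targets make and recycle glutathione (Gclc, Gclm, Slc7a11, Gsr), run the thioredoxin and peroxiredoxin system (Txnrd1, Srxn1, Prdx1) and reduce quinones or break down heme (Nqo1, Hmox1). Stratified epithelia such as the gingiva and skin are known to use this program against chemical and mechanical stress. Because Nrf2 is controlled mainly as a protein, the transcript of Nfe2l2 is not a measure of its activity.

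Reads counted on the genes with values numbered 17667564 to 22180195 per mouse after PBS and 17509328 to 24325513 after DT. Keratinocyte markers summed to 2049587 to 2206035 normalized counts (reads divided by the size factor of the library) after PBS and 2039291 to 2279920 after DT, the highest sum of any marker list, so the markers of the labelled epithelium were present in every library. Across the 12 cell type marker lists, 57 of 66 genes had values and 0 passed the test described below. Their log2 difference, DT minus PBS, was below 0 in 38 and above in 19, against 47.3% of all genes above. Their median was -0.279, against -0.011 over all genes. At an unadjusted limma p under 0.05, 5 were lower after DT and 0 higher, against 6.19% and 5.31% of all genes. All 6 LC markers were below 0 (median -0.429), while 6 of 7 keratinocyte markers were above. PBS 3 and PBS 5 stood apart from the other PBS mice on the first principal component of the 500 most variable genes. The 10 genes and the wider pathway lists below were left out of it, but the marker lists were not. On this component PBS 3 and PBS 5 lay at 17.2 and 20.8, the other PBS mice between -12.9 and -11.9 and the DT mice between -9.0 and 10.5. The same 2 mice had the highest sums of LC markers among PBS mice (4192 and 3348, against 1785 to 2176), with 1293 to 2413 after DT, and of macrophage and monocyte markers (523 and 484.7, against 278.7 to 355.7), with 288.1 to 402.6 after DT. Cd207 itself was low, at 10.0 to 43.0 after PBS and 15.8 to 21.6 after DT. Neutrophil, T cell, B cell, endothelial, red blood cell, skeletal muscle and melanocyte lists summed to between 6.9 and 267.6 in every mouse. Fibroblast and Schwann cell lists lay between 988 and 1594. Defining markers without values were Ly6g and Camp of neutrophils, Trbc2 and Trdc of T cells, Tyrp1 and Mlana of melanocytes and Sox10 of Schwann cells. Immediate early genes, which respond within minutes to stimulation or tissue handling, summed to 23908 to 63504 after PBS and 66895 to 107566 after DT, without overlap, and 9 of 11 passed the test. In bulk RNA, fewer cells of a type and less RNA per cell cannot be told apart.

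The promoters of the genes were read for the ARE core, TGACNNNGC on either strand. RefSeq promoter windows on GRCm38.p6, 250 bases before to 50 after a transcription start, were found for 7 of the 10 genes, with 3 starts for Txnrd1 and so 9 windows. The core stood in 5 of these 9 windows, of 5 genes, and in 12.4% of all 32851 promoter windows. An AP-1 site, TGANTCA, the element of the Fos and Jun proteins encoded by immediate early genes, stood in 2 of the 9 windows (Srxn1 and Prdx1) and in 7.81% of all. The stretches below are printed because they hold the site that names these genes as a group, with the core in capitals, 5′ to 3′ in the direction of the gene or, for a core on the opposite strand, with its reverse complement in capitals.
Nfe2l2, chr2:75704875-75704913, minus strand, core on the strand of the gene: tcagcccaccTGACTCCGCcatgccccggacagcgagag
Gclm, chr3:122245403-122245451, plus strand, core on the opposite strand: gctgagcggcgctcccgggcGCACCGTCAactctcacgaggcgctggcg
Prdx1, chr4:116685446-116685494, plus strand, core on the opposite strand: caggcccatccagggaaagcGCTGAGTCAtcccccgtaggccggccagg
Txnrd1, chr10:82859094-82859142, plus strand, core on the opposite strand: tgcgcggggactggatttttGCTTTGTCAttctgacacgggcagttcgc
The core lay 240 bases before the start in Nfe2l2, 134 in Gclm, 133 in Prdx1 and 92 in Txnrd1. In Prdx1 it overlapped the AP-1 match that lay 131 bases before the start, and another AP-1 match lay 237 bases before it. The ARE core of Srxn1 lay after its start and is not printed. Its promoter held 2 AP-1 matches, 102 and 45 bases before the start, in capitals here.
Srxn1, chr2:152105402-152105505, plus strand: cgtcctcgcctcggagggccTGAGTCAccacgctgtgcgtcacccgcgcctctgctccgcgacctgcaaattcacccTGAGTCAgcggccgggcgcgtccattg
Windows of Nqo1, Slc7a11 and the other starts of Txnrd1 held neither motif, which says only that these letters are not in these windows. Hmox1, Gclc and Gsr had no window.

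The first question was whether any of the 10 genes differed between DT- and PBS-treated mice. None passed the test: with limma on log2(normalized count + 1) and Benjamini-Hochberg adjustment over 19170 genes, 0 of 10 were below the adjusted p of 0.1 that the study also used, against 0.558% of all genes. At an unadjusted limma p under 0.05, 2 of 10 were past it, Nfe2l2 and Gclc, both higher after DT, against 5.31% of all genes in that direction and 6.19% in the other, where none of the 10 lay. The log2 difference, DT minus PBS, was above 0 in 8 of 10 genes. It was so in 47.3% of all genes and 50.7% of genes averaging 10 or more normalized counts. The median of the 10 genes was 0.094, against -0.011 over all genes and 0.002 over genes averaging 10 or more. All differences of the 10 genes lay between -0.13 and 0.20 on this scale.

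**Figure D1:**
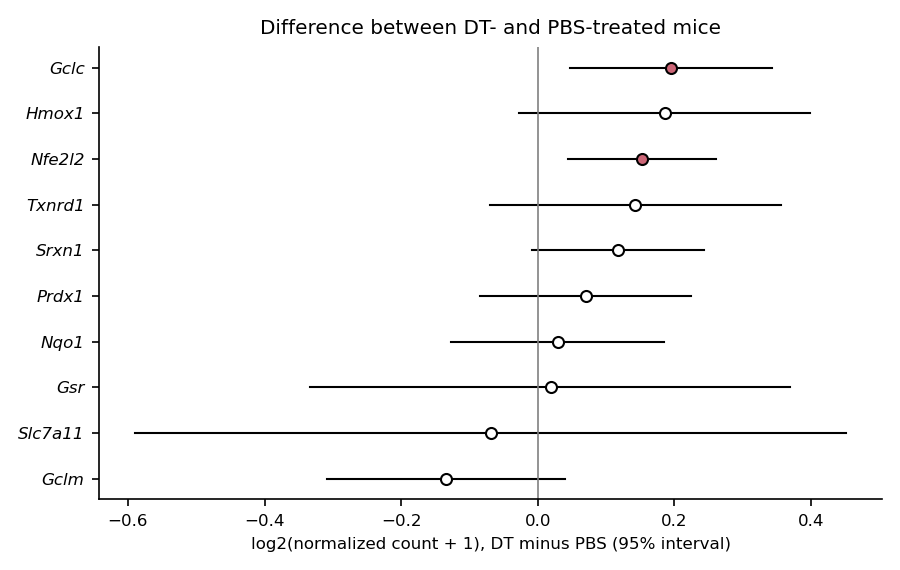
The difference of each gene between DT- and PBS-treated mice, as log2(normalized count + 1) with its 95% interval from limma over 11 mice; filled points mark an unadjusted p under 0.05. The intervals of Nfe2l2 and Gclc lie above 0, and that of Slc7a11 is the widest.

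Nfe2l2 (ENSMUSG00000015839, chromosome 2) was higher in every DT mouse than in any PBS mouse. It stood at 9283, 9235, 9298, 9162 and 8301 normalized counts in PBS 1 to 5 and at 9774, 9354, 10527, 10103, 10679 and 9972 in DT 1 to 6. The groups did not overlap, and the lowest DT mouse (DT 2) lay close above the highest PBS mouse (PBS 3). Among genes averaging 10 or more normalized counts, 1.23% were higher after DT without overlap and 0.883% lower, and the groups overlapped in each of the other 9 genes. The PBS mean was 9056 ± 425 (SD, n = 5) and the DT mean 10068 ± 488 (SD, n = 6). Their log2 difference was 0.15, with a standard error of 0.051 and a 95% interval of 0.044 to 0.26, or 1.11-fold. Its unadjusted p was 0.00871, and with limma's adjusted p at 0.259 it did not pass. Its coefficient of variation was 4.7% after PBS, the lowest of the 10 genes, and 4.85% after DT, the only gene of the 10 that varied more after DT.

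Genes of the proteins that control Nrf2 showed no called change. Keap1, the sensor that retains Nrf2, stood at 1164 ± 93.6 after PBS and 1200 ± 52.2 after DT, with a log2 difference of 0.047 and an adjusted p of 0.808 in limma. Cul3, the scaffold of the ligase, differed by 0.083 on the log2 scale (adjusted p 0.528), and Rbx1, its RING subunit, by 0.093 (adjusted p 0.561). Bach1, the repressor at AREs, had the smallest p of the 13 regulators examined: 1130, 914, 1217, 989 and 828.9 normalized counts in PBS 1 to 5, and 898, 861, 734, 724, 885 and 866 in DT 1 to 6. All DT mice lay below PBS 1 to 4, while PBS 5 lay within the DT range. The log2 difference of Bach1 was -0.29 with a standard error of 0.093, and its adjusted p was 0.248 in limma. Leaving out PBS 5, the PBS mouse within the DT range, widened the difference by construction. It was then -0.36 and passed, at an adjusted p of 0.081 in limma. Without any other 1 mouse Bach1 did not pass, at an adjusted p of up to 0.439. Bach2, also among the regulators, differed by -0.19 on the log2 scale (adjusted p 0.506 in limma). Among the regulators, 0 of 13 passed the test in either direction.

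**Figure D2:**
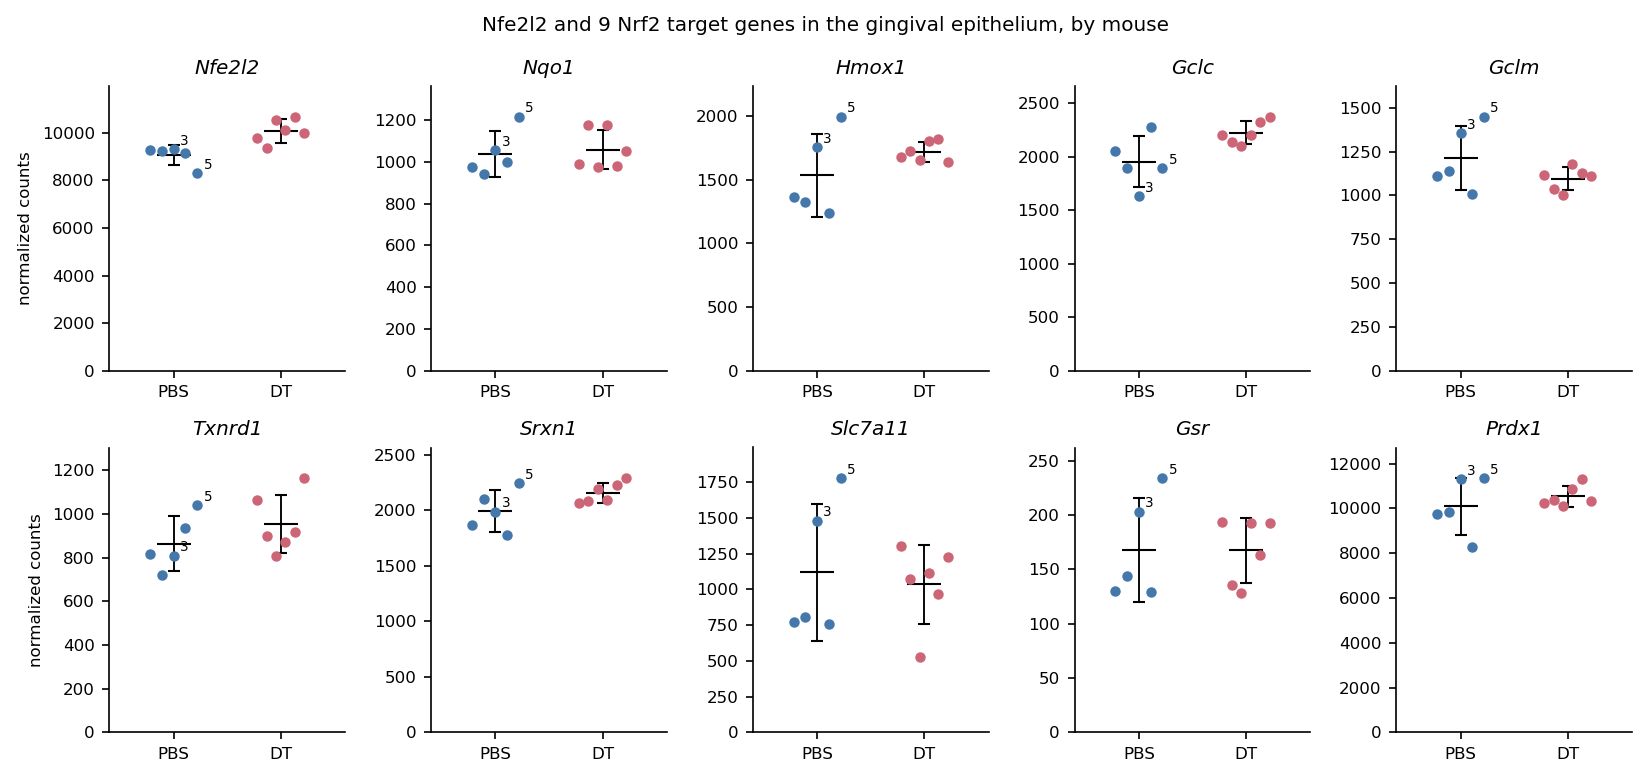
Normalized counts of the 10 genes in each of the 11 mice, 1 panel a gene, with PBS and DT mice apart and the mean and SD of each group drawn; the points of PBS 3 and PBS 5 carry their number. Nfe2l2 is the gene whose groups do not overlap, and in Nqo1, Hmox1, Gclm, Slc7a11, Gsr and Prdx1 the points of PBS 3 and PBS 5 lie above those of the other PBS mice.

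Glutathione synthesis begins with glutamate-cysteine ligase, whose catalytic subunit Gclc (ENSMUSG00000032350, chromosome 9) and modifier subunit Gclm (ENSMUSG00000028124, chromosome 3) differed in opposite directions, neither past the threshold. Gclc stood at 2054, 1899, 1636, 2281 and 1898 normalized counts in PBS 1 to 5 and at 2208, 2138, 2105, 2207, 2321 and 2376 in DT 1 to 6. All DT mice were above 4 of the PBS mice, and PBS 4 lay within the DT range. Its means were 1954 ± 237 after PBS and 2226 ± 104 after DT, a log2 difference of 0.20 (standard error 0.069, 95% interval 0.048 to 0.34), 1.14-fold, with an unadjusted p of 0.0128 and an adjusted p of 0.289 in limma. Leaving out PBS 4, the PBS mouse within the DT range, raised the difference by construction. The adjusted p of Gclc was then 0.0996 in limma, which passes. Without any other 1 mouse Gclc did not pass, at an adjusted p of up to 0.489.

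Gclm raises the affinity of the catalytic subunit for glutamate. It stood at 1112, 1141, 1354, 1007 and 1450.0 normalized counts in PBS 1 to 5 and at 1118, 1039, 1003, 1179, 1127 and 1113 in DT 1 to 6. PBS 3 and PBS 5 were the highest of the 11 mice, and the other PBS mice lay within the DT range. The log2 difference of Gclm was -0.13 (standard error 0.082, interval -0.31 to 0.040), with an adjusted p of 0.562 in limma. Without both PBS 3 and PBS 5 it was 0.013, a setting chosen after the values were seen.

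The ratio of Gclc to Gclm normalized counts, chosen after the values were seen and given as a description, was 1.85, 1.66, 1.21, 2.26 and 1.31 in PBS 1 to 5 and 1.98, 2.06, 2.1, 1.87, 2.06 and 2.13 in DT 1 to 6. It spread widely among PBS mice (1.66 ± 0.426, SD) and little among DT mice (2.03 ± 0.0947, SD), and the 2 lowest ratios were those of PBS 3 and PBS 5. Without these 2 mice the PBS ratio was 1.93 ± 0.308 (SD), with a range of 1.66 to 2.26 that held all DT ratios.

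**Figure D3:**
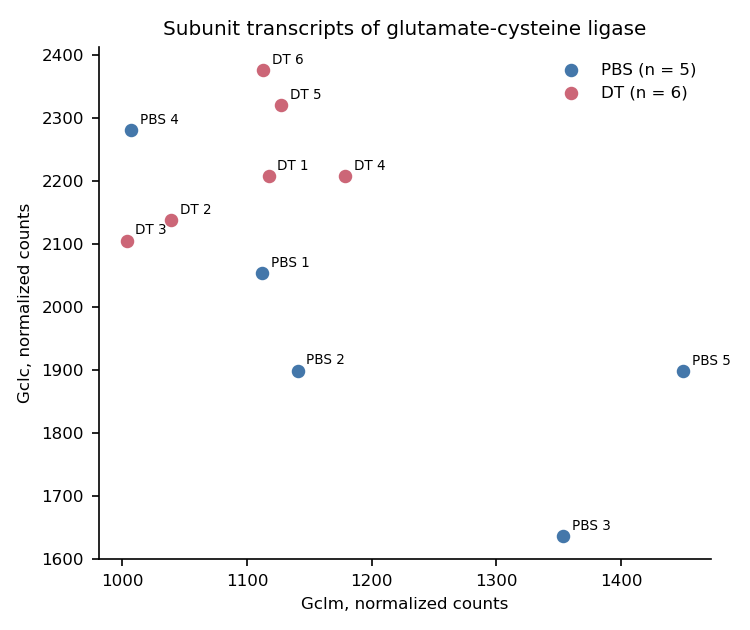
Gclc against Gclm in normalized counts, 1 point a mouse; the axes do not start at 0. DT mice sit together, while PBS 3 and PBS 5 lie at high Gclm and PBS 4 at high Gclc and low Gclm.

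Slc7a11 (ENSMUSG00000027737, chromosome 3), the cystine transporter that brings in the limiting amino acid of glutathione, varied most of the 10 genes. It stood at 772, 808, 1481, 759 and 1777 normalized counts in PBS 1 to 5 and at 1301, 1075, 525, 1114, 970.4 and 1228 in DT 1 to 6. PBS 5 and PBS 3 were the highest of the 11 mice and DT 3 the lowest. The coefficient of variation was 42.7% after PBS and 26.6% after DT. Its log2 difference was -0.069 with a standard error of 0.25 and an interval of -0.59 to 0.45, and the adjusted p was 0.946 in limma, so a change of about 1.37-fold upward or to 0.664 of the PBS level lies within the interval. The direction is not fixed: the difference was 0.12 without PBS 5.

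Gsr (ENSMUSG00000031584, chromosome 8), the reductase that returns oxidized glutathione to its reduced form, was the lowest of the 10 genes. It stood at 130.1, 144, 203, 129 and 234 normalized counts in PBS 1 to 5 and at 194, 136, 128, 192, 163 and 193 in DT 1 to 6. PBS 5 and PBS 3 were again the highest, and the groups overlapped throughout. The log2 difference was 0.019 (standard error 0.17, adjusted p 0.98 in limma). Its sign turned without PBS 1, PBS 2, PBS 4, DT 1, DT 4 or DT 6, with values from -0.064 to -0.024.

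Thioredoxin reductase, sulfiredoxin and peroxiredoxin act together to remove peroxides. Txnrd1, the cytosolic thioredoxin reductase (ENSMUSG00000020250, chromosome 10), stood at 818, 718, 809, 933 and 1040 normalized counts in PBS 1 to 5 and at 808 to 1164 in DT mice, with a median of 907. The log2 difference was 0.14 (standard error 0.10, adjusted p 0.623 in limma), and the ranges overlapped. DT 6 and DT 1 had its highest values, and PBS 2 its lowest.

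Srxn1, the sulfiredoxin that repairs over-oxidized peroxiredoxins (ENSMUSG00000032802, chromosome 2), stood at 1864, 2102, 1987, 1772 and 2240.1 normalized counts in PBS 1 to 5 and at 2067 to 2288 in DT mice, with a median of 2139. PBS 4, PBS 1 and PBS 3 lay below all DT mice, and PBS 2 and PBS 5 lay within their range. Its log2 difference was 0.12 (standard error 0.059, interval -0.009 to 0.24), 1.08-fold, with an adjusted p of 0.466 in limma.

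Prdx1, the cytosolic peroxiredoxin (ENSMUSG00000028691, chromosome 4), had the highest counts of the 10 genes. It stood at 9753, 9827, 11297, 8296 and 11360.1 in PBS 1 to 5 and at 10098 to 11329 in DT mice, with a median of 10362. PBS 1, PBS 2 and PBS 4 lay below all DT mice, and PBS 5 was the highest of the 11. Its log2 difference was 0.070 (standard error 0.073, adjusted p 0.769 in limma).

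Nqo1, the quinone reductase often read as a marker of Nrf2 activity (ENSMUSG00000003849, chromosome 8), differed little between the groups. It stood at 973, 944, 1055, 999 and 1216 normalized counts in PBS 1 to 5 and at 989, 1175, 976, 1173, 981 and 1050.1 in DT 1 to 6. PBS 5 was the highest of the 11 mice and PBS 2 the lowest. The log2 difference was 0.029 (interval -0.13 to 0.19), with an adjusted p of 0.919 in limma. Without PBS 2, DT 2 or DT 4 it fell to between -0.004 and -0.002, so its direction is not fixed.

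Hmox1, the inducible heme oxygenase (ENSMUSG00000005413, chromosome 8), was spread among PBS mice and even among DT mice. It stood at 1361, 1322, 1754, 1242 and 1995 normalized counts in PBS 1 to 5 and at 1676, 1721, 1655, 1799, 1819 and 1637 in DT 1 to 6. PBS 1, PBS 2 and PBS 4 lay below all DT mice, and PBS 5 lay above all of them. The PBS mean was 1535 ± 324 (SD, n = 5) and the DT mean 1718 ± 76.3 (SD, n = 6), with coefficients of variation of 21.1% and 4.44%. The log2 difference was 0.19 (standard error 0.10, interval -0.027 to 0.40) and the adjusted p 0.496 in limma. Hmox1 is also expressed by macrophages, and the macrophage and monocyte sums of PBS 3 and PBS 5 (523 and 484.7) were the highest of the 11 mice; red blood cell markers summed to 92.8 to 267.6 after PBS and 76.9 to 162.9 after DT. Their part in its level was not tested.

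Across the 10 genes, PBS 3 and PBS 5 were both above the other PBS mice in 6 (Nqo1, Hmox1, Gclm, Slc7a11, Gsr and Prdx1) and both below them in 1 (Gclc). In Gclc, PBS 5 (1898.1) lay barely below PBS 2 (1898.8). Of the genes averaging 10 or more normalized counts, 23.2% had both mice above and 22.4% both below. The pattern was not particular to the 10 genes: of 82 wider pathway genes averaging 10 or more, 47 had both above and 4 both below. Both were above in 6 of 6 LC markers and 6 of 6 macrophage and monocyte markers averaging 10 or more, and in 1 of 7 keratinocyte markers. PBS 5 was the highest of the 11 mice in 6 of the 10 genes. PBS 4 was the lowest or next to lowest in 7 of the 10, and DT 3 was so in 4. Nfe2l2 took no part in this pattern, since PBS 5 was its lowest mouse.

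**Figure D4:**
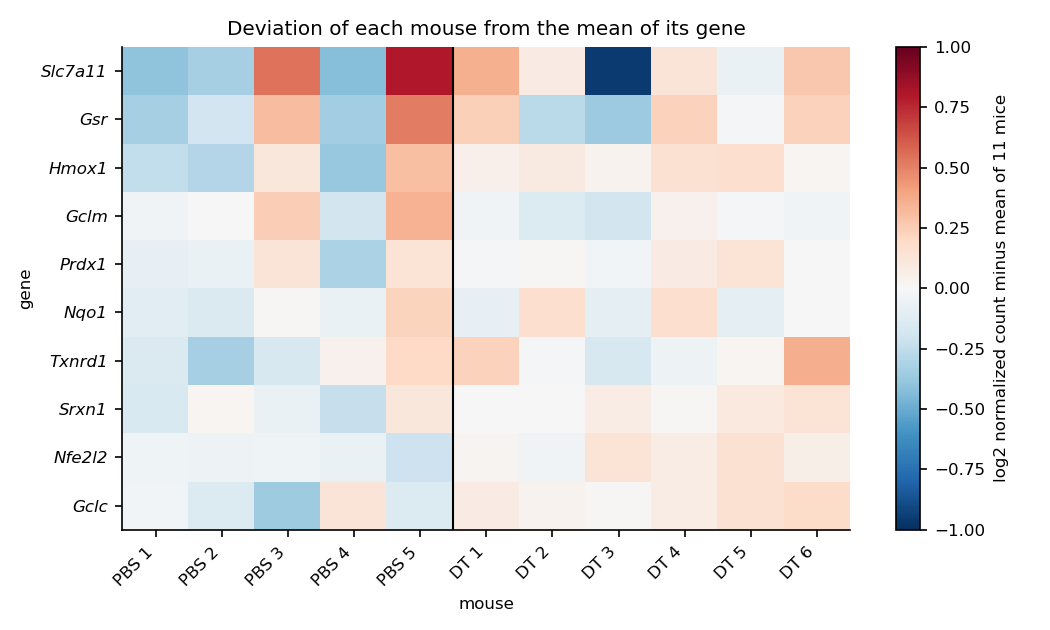
Deviation of each mouse from the mean of its gene, as the log2 value minus the mean of the 11 mice, with genes as rows, mice as columns and a line between PBS and DT mice. PBS 3 and PBS 5 are red in Slc7a11, Gsr, Hmox1, Gclm and Prdx1, where PBS 1, PBS 2 and PBS 4 are blue or near 0. Gclc is blue in PBS 3 and, more weakly and alike, in PBS 2 and PBS 5.

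Leaving out both PBS 3 and PBS 5, chosen after the values were seen, raised the difference of genes that were high in them by construction. Then 3 of the 10 genes passed the test, all higher after DT: Hmox1 at a log2 difference of 0.39 (adjusted p 0.00401), Srxn1 at 0.18 (adjusted p 0.0905) and Prdx1 at 0.19 (adjusted p 0.0844), by limma over all genes. Nfe2l2 stood at 0.12 (adjusted p 0.166) and Gclc at 0.10 (adjusted p 0.346). With these mice left out, 1967 genes passed over the whole table, against 107 with all mice. With all mice, the coefficient of variation was larger after PBS in 9 of the 10 genes, against 69.5% of the genes averaging 10 or more.

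Levels were compared between genes per kilobase of exon, from GENCODE M21 exon lengths on GRCm38, which are approximate for these files. Dividing by length assumes that counts grow with the length of the transcript. The paper's methods cite the guide of a different kit, QuantSeq, from the kit in its reporting summary, and the assumption was not tested. Prdx1 was the highest, at 3320 ± 418 normalized counts per kilobase after PBS, followed by Nfe2l2 at 2390 ± 112. Hmox1 at 876 ± 185, Srxn1 at 707 ± 66.0 and Nqo1 at 668 ± 69.5 came next, and neighbours in this order lay within their spread of each other. Gclc at 519 ± 62.8 was lower than these, and Gclm at 193 ± 29.1 and Txnrd1 at 122 ± 17.6 were lower again. Slc7a11 at 80.4 ± 34.3 and Gsr at 61.0 ± 17.3 were lowest and lay within their spread of each other. After DT the order was the same, from 3470 ± 154 for Prdx1 to 60.8 ± 10.9 for Gsr.

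Beyond the 10 genes, 84 genes of 8 lists of the wider pathway had values, and 1 of them passed the test. This was Osgin1, a growth inhibitor induced by oxidative stress and a known Nrf2 target (chromosome 8), which rose after DT. It stood at 699, 711, 656, 654 and 653 normalized counts in PBS 1 to 5 and at 779, 803, 764, 790.1, 787 and 905 in DT 1 to 6, without overlap. The log2 difference was 0.25 (standard error 0.055) and the adjusted p 0.0782 in limma, against 0.313% of all genes called in this direction. Its call was lost when any 1 mouse but PBS 5 was left out, with adjusted p from 0.101 to 0.194. Among the wider genes, only the promoter of Osgin1, the gene that passed, was read, and its window held no ARE core. An AP-1 site stood in 7.81% of all promoter windows. The promoter of Osgin1 held an AP-1 match 97 bases before the start, in capitals here.
Osgin1, chr8:119437030-119437076, plus strand, GRCm38.p6: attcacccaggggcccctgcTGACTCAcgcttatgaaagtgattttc
Immediate early genes were higher after DT in the same mice, as given above, and their part in the level of Osgin1 was not tested.

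Cbr3, a carbonyl reductase, was the other wider gene without overlap: it stood at 2325, 2364, 2623, 2054 and 2663 normalized counts in PBS 1 to 5 and at 2754 to 3154 in DT mice. Its log2 difference was 0.27 (standard error 0.064), and the adjusted p was 0.105 in limma, just above the threshold. It passed without PBS 3 (0.0799) or without PBS 5 (0.0404), its 2 highest PBS mice, which raised the difference by construction. Without any other 1 mouse Cbr3 did not pass, at an adjusted p of up to 0.292. Osgin1 and Cbr3 were 2 of 84 genes, where 1.23% of the genes averaging 10 or more normalized counts were higher without overlap. Of the 84 genes, 51 had a log2 difference above 0, against 47.3% of all genes and 50.7% of those averaging 10 or more. The median of the 84 was 0.033. At an unadjusted p under 0.05, 5 of the 84 were higher and 3 lower, against 5.31% and 6.19% of all genes, so neither count stood out from that background.

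The wider lists were described by their counts alone. The log2 difference was above 0 in 8 of 13 regulators, 9 of 13 genes of glutathione synthesis and peroxidases and 8 of 17 transferases. It was so in 7 of 10 of the thioredoxin and peroxiredoxin list and 3 of 4 of superoxide dismutase and catalase. For NADPH supply it was so in 6 of 6, for heme and iron in 4 of 7 and for detoxification in 6 of 14. The share was 47.3% of all genes and 50.7% of genes averaging 10 or more. In glutathione synthesis and peroxidases, 0 of 13 passed, and the median log2 difference was 0.085. Gpx1, a selenium-dependent glutathione peroxidase, stood at 3709 ± 759 after PBS and 4256 ± 213 after DT (log2 difference 0.22, adjusted p 0.412 in limma). In the thioredoxin and peroxiredoxin list, 0 of 10 passed, with a median of 0.097. Prdx2 stood at 7675 ± 943 after PBS and 8785 ± 421 after DT (log2 difference 0.20, adjusted p 0.286). Among 17 glutathione transferases 0 passed, with a median of -0.007, and Mgst2 had the smallest p (log2 difference -0.33, adjusted p 0.363). Catalase (Cat) stood at 2235 ± 65.5 and 2418 ± 144 (adjusted p 0.395), and 0 of 4 genes of superoxide dismutase and catalase passed. In the NADPH list 0 of 6 passed, and Idh1 had the smallest p (log2 difference 0.13, adjusted p 0.435). For heme and iron, 0 of 7 passed, with Fth1, the ferritin heavy chain, at 0.15 (adjusted p 0.451) and Slc40a1 at -0.25 (adjusted p 0.556 in limma). Among 14 detoxification genes, Osgin1 was the 1 that passed, and Abcc1, an efflux pump, lay at -0.20 (adjusted p 0.217).

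**Figure D5:**
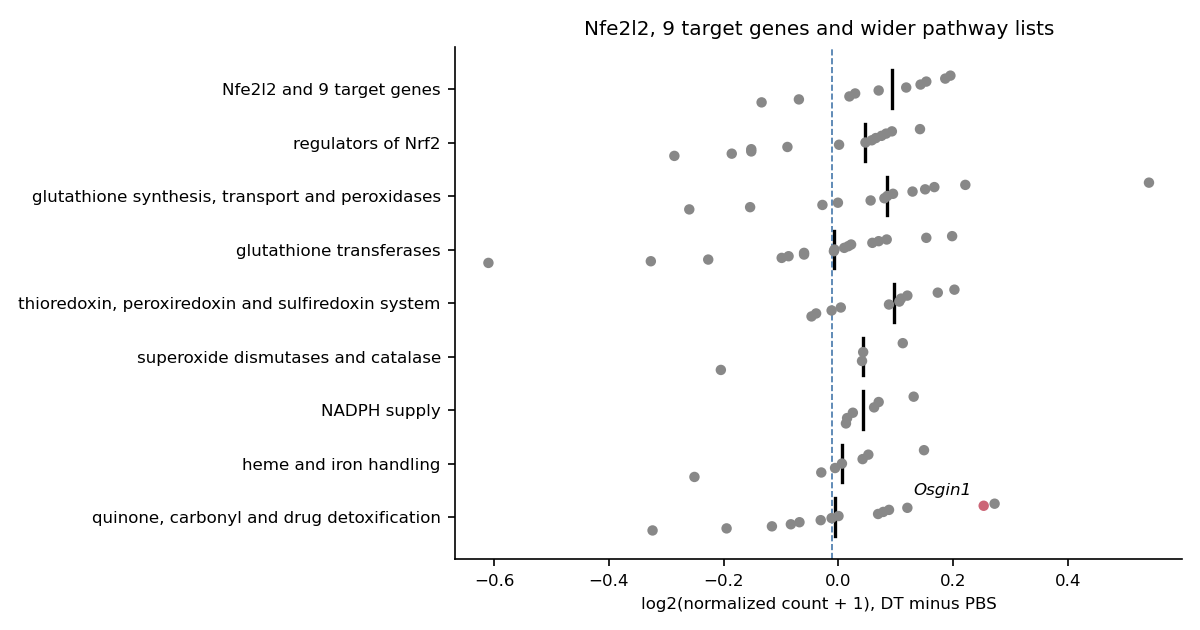
Log2 difference between DT and PBS mice of each gene with values, in the 10 genes (top) and by wider list, with 1 point a gene, a bar at the median of each list and a dashed line at the median of all genes (-0.011); Osgin1, in red, is the gene that passed the test. Medians of the 8 wider lists lie between -0.007 and 0.097.

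The genes whose levels followed Nfe2l2 most closely over the 11 mice, with group means removed, were Paip1 (Pearson 0.921), Twsg1 (0.918), Wls (0.895), Ppil2 (0.884) and Me1 (0.878), among 10018 genes averaging 100 or more normalized counts. The 11 points share library and depth, and PBS 5 stands apart in Nfe2l2, so the values are a description: without PBS 5 and DT 2, the mice farthest from the median, Pearson's r was 0.769, 0.916, 0.721, 0.671 and 0.893 in the same order.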

How the data were processed

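Gingival epithelium of 5 PBS- and 6 DT-treated mice was sequenced as stranded polyA libraries, the kind named in the paper's reporting summary. The paper's methods process the reads by the guide of another kit, QuantSeq. The deposited values are normalized counts: per the labels and the paper's methods, the authors trimmed reads with cutadapt, aligned them with TopHat2, counted them per gene with HTSeq and divided counts by DESeq2 size factors. The submitters' processing notes give cutadapt 2.10, TopHat2 2.1.1, HTSeq 2.01, DESeq2 1.36.0 and GRCm39, whereas the paper's methods name GRCm38, so no gene coordinates are printed and promoter windows carry their own build. Of 55414 genes listed, 19170 had values. In every mouse all values were whole multiples of 1 read within 0.001, from which depth was recovered.

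Differences were fitted in limma 3.58.1 (R 4.3.3), with trend set, to log2(normalized count + 1) of all 11 mice, no covariate, and Benjamini-Hochberg adjustment over 19170 genes at 0.1. The pseudocount of 1 shrinks fold changes of low genes. All 10 genes had over 100 normalized counts in every mouse, whereas some wider genes had means under 10, where counting error is large. The naming rule took the 10 genes, Keap1, wider genes past the threshold and the 5 genes most like Nfe2l2. It also took the 2 genes per list and direction with the smallest p, among genes averaging 10 or more. Not all of these last genes are printed. Bach1's and Cbr3's values per mouse and the Gclc to Gclm ratio were chosen after values were seen. The 10 genes and the lists were chosen with earlier results of these data known. The procedure was tested on simulated data. Its genes were independent and had the same dispersion, and its changes were larger than any difference of the 10 genes. It therefore does not show how the procedure handles changes as small as theirs, or mice that deviate together.

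Alternatives were pseudocounts of 0.5 and 8, genes averaging 10 or more only, array weights, TMM scaling, replicate blocks, each mouse left out, and, chosen after seeing the data, both PBS 3 and PBS 5 left out. Columns were matched to samples by the column name in each sample's description, and 0 columns of values were left unused. For PBS 5 the number in the column name differs from the library number in the title.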

Additional observations from a re-analysis of the deposited data

Results flagged for a closer look

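In 5 of the 78 groups of mice examined, over 39 genes, a single mouse lay farther from the others than Dixon's test allows at 95%, and chance gives about 1 in 20 groups. Nfe2l2 in PBS 5 had 8300.5 normalized counts, against 9162 to 9298 in the other PBS mice, a gap of 0.864 of the range. Osgin1 in DT 6 had 905, against 764 to 803 in the other DT mice, a gap of 0.724 of the range. Gsto1, a glutathione transferase, in DT 3 had 27435, against 30985 to 32788, a gap of 0.663 of the range. Idh1, an NADPH-producing dehydrogenase, in PBS 3 had 4338, against 3586 to 3709, a gap of 0.836 of the range. Aldh3a1, an aldehyde dehydrogenase, in DT 2 had 33993, against 25634 to 28641, a gap of 0.64 of the range.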

How the results depend on the processing

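Of the 10 genes, 6 kept the direction of their difference in all 19 settings and 4 changed it. Genes past the threshold numbered 107 with all mice, 189 with array weights, 35 with the replicate block by the number in the title, 0 with the block by library number (1404 genes at an unadjusted limma p under 0.05), 1967 without both PBS 3 and PBS 5 and 27 (without DT 5) to 259 (without PBS 5) with 1 mouse left out. The 10 genes had 0 calls higher, 0 to 1 with 1 mouse left out (Gclc without PBS 4) and 3 without both PBS 3 and PBS 5. The wider genes had 1 call higher, 2 with array weights, 0 with either block, 0 to 2 with 1 mouse left out and 16 without both; lower calls were 0, 0 to 1 with 1 mouse left out and 5 without both. Directions turned for Slc7a11 (0.091 with array weights, 0.354 without both, -0.185 to 0.122 with 1 mouse left out), Gsr (-0.025 with the block by title, -0.064 to 0.149 with 1 mouse left out), Nqo1 (-0.004 to 0.088) and Gclm (0.013 without both). Among other genes they turned for Txn1 (0.004 with array weights, 0.159 without both, -0.129 to 0.044), Ftl1 (0.024, 0.133, -0.079 to 0.052), Gstm1 (0.065 without both) and Txnrd2 (-0.087 to 0.005). Causes were not tested. Osgin1 lost its call in 12 settings, at an adjusted p of 0.337 with the block by title and 0.454 by library number. Deviations of same-numbered PBS and DT mice correlated between -0.233 and 0.324. Mice of different numbers were not correlated for comparison, so these values do not decide whether the numbers stand for a pairing. The labels give only the numbers. Count tests with edgeR and DESeq2 on recovered reads were not run, since the deposited values were treated as normalized. Wider genes with means near or under 10 normalized counts carry a large counting error.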
